A study of Mus musculus with 96 samples.

Results

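The 10 genes described here belong to the signalling that an activated Flt3 receptor drives: Socs2, Cish, Socs1, Socs3, Pim1 and Pim2, which STAT5 and other STAT factors induce, the MAPK feedback genes Dusp6, Spry2 and Spred1, and the ETS-family gene Etv6. They were taken by name from the 23955 gene symbols of the TPM table, and all 10 were present in it. TPM (transcript units scaled by gene length) sums to 1000000 in each cell. The cells were 96 c-Kit (CD117) bead-enriched splenocytes, each captured and sequenced alone on a microfluidic chip, 48 from each of 2 moribund mice with acute myeloid leukemia. Both mice were Flt3ITD/ITD;Dnmt3afl/- MxCre, so both Flt3 alleles carried the internal tandem duplication, 1 Dnmt3a allele was floxed and the other absent, and Cre came from the interferon-responsive Mx1 promoter. The protocols also name spleens of Flt3ITD/ITD;Dnmt3afl/fl controls, and these are not analysed here. No value below is therefore an effect of the Flt3 duplication or of Dnmt3a: the comparisons are between cells of a mouse, and between the 2 mice, whose difference cannot be told apart from the capture round and from sex, which also differed: Xist averaged 55.0 TPM in mouse 1 and 0.044 TPM in mouse 2, and the Y-linked Ddx3y 0.024 and 51.1 TPM. Between the mice there was 1 animal a side, and within the mice there were only 2 differences per comparison, so no test was run. Values are given for each mouse, and a difference in mean log2(TPM + 1) is counted only when it was at least 1 in the same direction in both mice.

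As background, Flt3 is a receptor tyrosine kinase of early blood progenitors, and the tandem duplication in its juxtamembrane part makes it signal without ligand and activate STAT5, RAS-MAPK and PI3 kinase. STAT5 then induces its own brakes: the SH2 proteins SOCS2 and CIS (the product of Cish) bind phosphorylated receptors, SOCS1 and SOCS3 also inhibit JAK kinases, and PIM1 and PIM2 are serine/threonine kinases that favour survival and growth. In the MAPK arm DUSP6 is a MAP kinase phosphatase, while SPRY2 and SPRED1 restrain the pathway between receptor and RAF. ETV6 is an ETS-family repressor needed by blood stem cells.

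Cells were divided by the TPM of 3 marker genes at a threshold of 1000 TPM, taken in this order: H2-Aa (an MHC class II chain) gave class II-high cells, S100a8 (a granulocyte alarmin) S100a8-high cells, Mpo (myeloperoxidase of granule-forming progenitors) Mpo-high cells, and the others are called rest. Mouse 1 held 14 class II-high, 13 Mpo-high, 1 S100a8-high and 20 rest cells, and mouse 2 held 20, 12, 10 and 6. In 4 cells more than 1 of the markers passed the threshold. Among markers of the cell types a spleen can hold, all 8 conventional dendritic cell (cDC1) markers averaged ≥10 TPM in class II-high cells of both mice, with a summed median of 81261 TPM in mouse 1 and 82630 in mouse 2, against 38.3 and 49.2 TPM in rest cells. H2-Aa, which defined the class II-high cells, is 1 of the 8, so part of this contrast was set by the division itself. The 6 stem and early progenitor markers, Cd34, Angpt1, Meis1, Mecom, Hlf and Gata2, all averaged ≥1 TPM in rest cells (summed medians of 882 and 887 TPM). In Mpo-high cells 6 and 5 of them did, with summed medians of 614 and 486 TPM. Rest cells also held markers of granulocyte-monocyte progenitors, Mpo among them. Their summed medians were 681 and 506 TPM, against 9504 and 13545 TPM in Mpo-high cells. These sums include Mpo, which defined the Mpo-high cells. In the S100a8-high cells of mouse 2 all 6 stem and early progenitor markers were below 1 TPM. The 6 neutrophil markers, which include the defining gene S100a8, summed there to a median of 423149 TPM. Kit, the enriched antigen, was at ≥10 TPM in 55 of the 96 cells, including 8 of 14 and 10 of 20 class II-high cells, and in 2 of the 10 S100a8-high cells of mouse 2. The count of detected genes (1 TPM and above), which moves with how much of a cell's RNA was captured, had medians of 2921.5 and 2581 in class II-high, 4463 and 4041 in Mpo-high and 3587.5 and 4251.5 in rest cells, and 2821 in the S100a8-high cells of mouse 2. Its part in each difference was not tested beyond the linear fit given below. Read depth is unknown, since TPM keeps none.

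Since several of these genes are known STAT5 targets, the members' promoters were read for the palindrome such factors bind. RefSeq windows (build GRCm38.p6, 250 bases before to 50 after the annotated start) were matched for 9 of the 10 members; Socs2 had no window and was not searched. The motif searched was TTCNNNGAA, which is the same on both strands, and at least 1 match was in 8.33% of 32544 promoter windows. Among the members it was found in Cish, Etv6 and Socs3. The 3 windows are shown, 5′ to 3′ on the gene's strand, because they hold every match among the 9 members searched; capitals mark the matches.
Cish, chr9:107296409-107296708, plus strand: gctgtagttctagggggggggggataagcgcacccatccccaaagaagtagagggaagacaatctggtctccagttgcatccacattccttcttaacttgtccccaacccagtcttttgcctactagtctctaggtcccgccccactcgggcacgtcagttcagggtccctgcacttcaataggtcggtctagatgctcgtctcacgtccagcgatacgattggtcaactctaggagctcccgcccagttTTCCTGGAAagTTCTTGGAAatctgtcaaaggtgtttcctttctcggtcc
Etv6, chr6:134035450-134035749, plus strand: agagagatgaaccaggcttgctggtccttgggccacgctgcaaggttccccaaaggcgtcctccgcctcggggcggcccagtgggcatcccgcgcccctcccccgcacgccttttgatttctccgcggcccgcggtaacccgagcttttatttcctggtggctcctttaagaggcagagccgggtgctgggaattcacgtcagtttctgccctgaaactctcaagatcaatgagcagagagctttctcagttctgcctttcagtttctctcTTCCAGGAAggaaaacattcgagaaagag
Socs3, chr11:117969317-117969616, minus strand: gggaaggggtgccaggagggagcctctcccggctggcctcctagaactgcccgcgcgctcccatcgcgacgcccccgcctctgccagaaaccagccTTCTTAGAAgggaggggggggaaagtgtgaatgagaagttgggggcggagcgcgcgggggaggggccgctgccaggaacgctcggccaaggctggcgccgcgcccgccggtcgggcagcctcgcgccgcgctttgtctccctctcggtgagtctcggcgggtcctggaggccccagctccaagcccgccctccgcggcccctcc
The Cish window held 2 matches, TTCCTGGAA and TTCTTGGAA, whose first bases lay at positions 1 and 12 counted from the RefSeq start site. Only 0.461% of all windows held 2 or more. Etv6 had TTCCAGGAA from position 22, and Socs3 had TTCTTAGAA from position -154. A match is a description of letters, not a binding site. The 3 genes stood apart in expression: Cish was at ≥10 TPM in 34 of 96 cells, Etv6 in 53 and Socs3 in 2. In the mouse annotation of the same build (GRCm38) Socs2 lies on chromosome 10 from 95385362 to 95417180 on the minus strand, Pim2 on X from 7878262 to 7883432 on the plus strand, and Spry2 on 14 from 105891947 to 105896819 on the minus strand. There Cish spans 107296026 to 107302784 and Socs3 117966079 to 117970047. The windows of both, with their matches, lie inside these spans, so the positions given hold only for the RefSeq start sites. The ETS-factor motif CCGGAAGT, searched on both strands, was in no member window and in 3.92% of all windows.

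Over all 96 cells Socs2 was the most abundant member, with a mean of 241 TPM, followed by Cish (114 TPM), Pim2 (108 TPM), Etv6 (48.6 TPM), Spry2 (17.8 TPM), Pim1 (14.1 TPM), Spred1 (12.2 TPM), Dusp6 (6.36 TPM), Socs1 (6.02 TPM) and Socs3 (0.825 TPM). The order by number of cells was different. Etv6 was at ≥1 TPM in 74 cells, Pim1 in 58, Socs2 in 53, Cish in 41, Pim2 in 30, Spry2 in 25, Spred1 in 19, Dusp6 in 12, Socs1 in 6 and Socs3 in 2. Where a member reached 10 TPM, the share of cells at ≥100 TPM also differed: it was 42 of 46 for Socs2, 22 of 34 for Cish, 15 of 24 for Pim2, 16 of 53 for Etv6 and 2 of 34 for Pim1. As a scale for low values, Xist in mouse 2 and the Y-linked Ddx3y and Eif2s3y in mouse 1 never exceeded 0.76 TPM in a cell. Most neighbours in the order of means overlap widely between cells and between mice, and Cish and Pim2 changed places between mouse 1 (161 and 184 TPM) and mouse 2 (66.4 and 30.7 TPM).

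Socs2 was high in rest and Mpo-high cells and near 0 elsewhere. In rest cells of mouse 1 it ranged from 0.53 to 2253 TPM with a median of 408 and was at ≥10 TPM in 18 of 20; in the 6 rest cells of mouse 2 it was 102.63, 177.92, 487.28, 663.71, 1615.96 and 1835.4 TPM. In Mpo-high cells it ranged from 2.56 to 611 TPM (median 208) in mouse 1 and from 0 to 722 TPM (median 257) in mouse 2, and 11 of 13 and 11 of 12 cells reached 10 TPM. In class II-high cells the highest value was 1.64 TPM in mouse 1 and 4.09 TPM in mouse 2. None of the 34 class II-high cells reached 10 TPM, which allows a share of up to 8.82% (3 cells of the total; the exact upper limit is 10.3%), and none of the 10 S100a8-high cells of mouse 2 did, which allows up to 30% (exact 30.8%). The share among all rest cells was 92.3% (exact Clopper-Pearson 95% interval 74.9 to 99.1); such intervals and limits cover counting error only, and cells of 1 mouse are not replicates. The ranges of rest and class II-high cells did not overlap in mouse 2, and in mouse 1 they overlapped only through 2 rest cells.

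**Figure D1:**
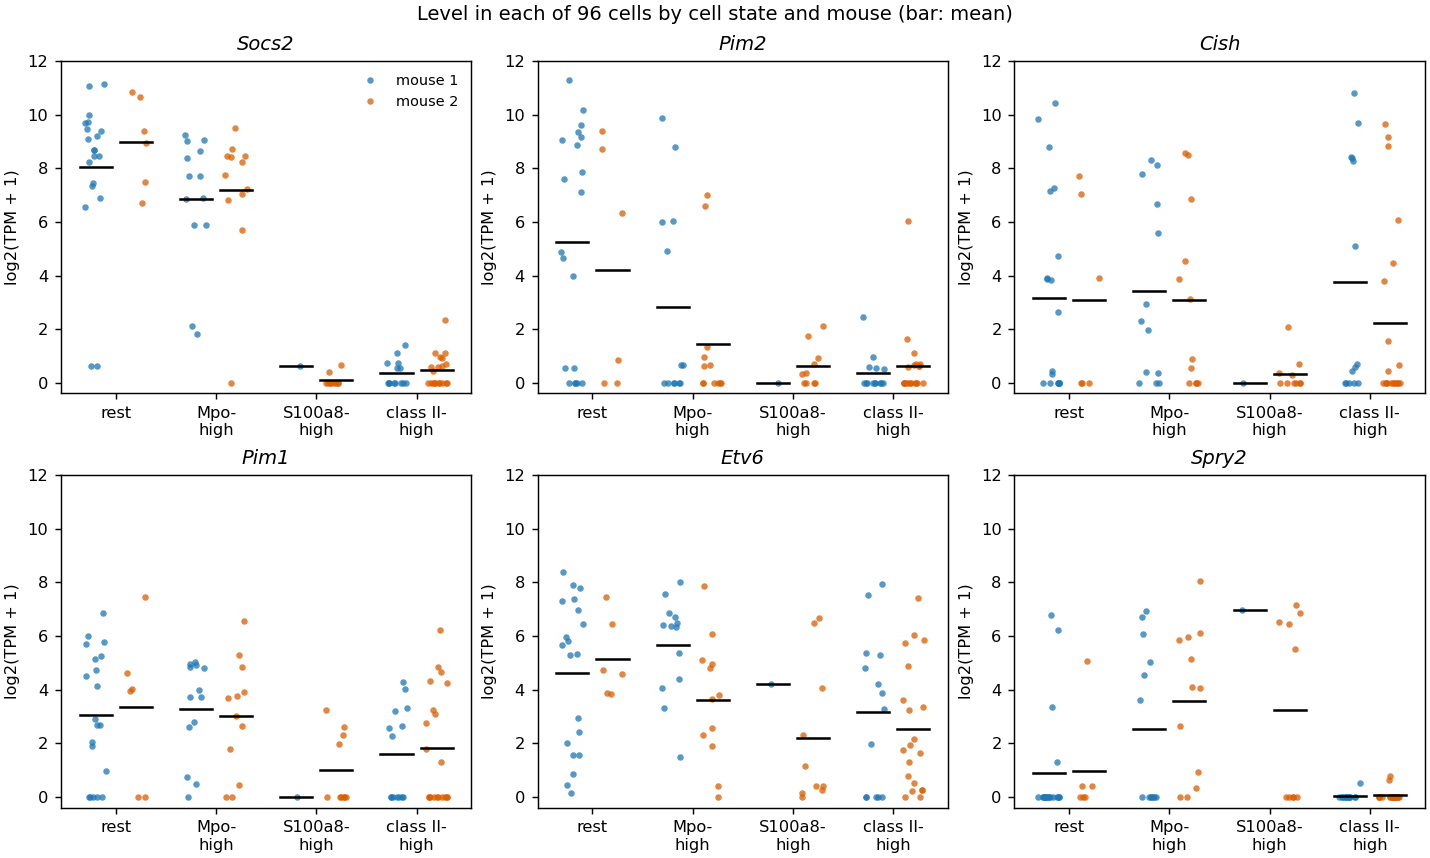
Level of 6 members in every cell, as log2(TPM + 1) on the vertical axis, by cell state on the horizontal axis; blue points are the 48 cells of mouse 1, orange points the 48 cells of mouse 2, and bars are means over cells. Socs2 and Pim2 lie near 0 in class II-high and S100a8-high cells, Cish stays high in 6 class II-high cells of each mouse, and Spry2 is high in Mpo-high and S100a8-high cells.

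On the log scale Socs2 was lower in class II-high than in rest cells by -7.67 in mouse 1 and -8.53 in mouse 2, and in the S100a8-high cells of mouse 2 by -8.89. Among the 11015 genes with a mean of at least 1 TPM, ordered by the smaller of the differences in the 2 mice, Socs2 was 6th from the lowest in the class II comparison, and it was 2nd from the lowest in the S100a8 comparison of mouse 2. These comparisons and that of Mpo-high cells share the same rest cells. Leaving out any 1 cell kept the class II differences between -8.07 and -7.51 in mouse 1 and between -8.99 and -8.16 in mouse 2. In Mpo-high cells Socs2 was lower by -1.17 and -1.80; this value in mouse 1 went to -0.75 without 1 cell.

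Among the 51 class II-low and S100a8-low cells of the 2 mice only 5 had Socs2 under 10 TPM, and each carried a further mark; they were chosen here after their values were seen. In mouse 1 a pair of rest cells at 0.54 and 0.53 TPM had Cd34 at 0.23 and 0.44 TPM, and they were the cells with Epor (the erythropoietin receptor) at 989 TPM and with Gata1, an erythroid and megakaryocyte factor, at 210 TPM together with Itga2b (platelet integrin) at 275 TPM. The other 3 were Mpo-high cells. Mouse 1 had Socs2 at 2.56 and 3.39 TPM in the cells that were 3rd and 1st of 13 by Mpo, with 24708 and 32576 TPM of Mpo, and mouse 2 listed Socs2 at 0 in the cell that was 1st of 12, with 26342 TPM of Mpo. These 3 cells kept Cd34 at 481, 592 and 463 TPM. High Mpo was not confined to Socs2-low cells. The mouse 1 cell between those cited, with 24827 TPM of Mpo, had Socs2 at 57.4 TPM. A mouse 2 cell with 20406 TPM of Mpo had Socs2 at 299 TPM. Over all Mpo-high cells the Spearman correlation of Socs2 with Mpo was -0.74 in mouse 1 (13 cells) and -0.31 in mouse 2 (12 cells), a description in which the cells share their library run and the TPM total. With detected genes, the correlation of Socs2 in the same cells was -0.09 and 0.17.

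Socs2 and Cd34, a surface sialomucin of early progenitors, marked nearly the same cells. Of the 46 cells with Socs2 at ≥10 TPM, 44 had Cd34 at ≥10 TPM, and of the 50 cells with Cd34, 44 had Socs2; in mouse 1 all 29 Socs2 cells had Cd34. Over the 48 cells of each mouse the Spearman correlation was 0.81 in mouse 1 and 0.71 in mouse 2. Those values include the states in which both genes were near 0: among class II-low and S100a8-low cells the correlation was 0.48 in mouse 1 (33 cells) and 0.02 in mouse 2 (18 cells). After a linear fit on detected genes, again over all 48 cells of each mouse, Socs2 was most like Ifitm1 (mean of the 2 within-mouse Spearman correlations 0.81), Cd34 (0.77) and Tmem176b (0.76) among 4655 genes compared. Of the 5 other members at ≥1 TPM in at least 24 cells, the nearest genes reached 0.50 for Pim2 (Akr1c13), 0.49 for Spry2 (Tcn2), 0.40 for Pim1 (Phgdh), 0.38 for Etv6 (Atp5l) and 0.38 for Cish (Mtif2). These fitted values include the states in which genes were near 0, where the fit alone can make such genes look alike. Among class II-high cells the correlation of Spry2 with Cd34 was -0.04 and -0.21 before the fit. After it the values were 0.93 and 0.75.

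**Figure D2:**
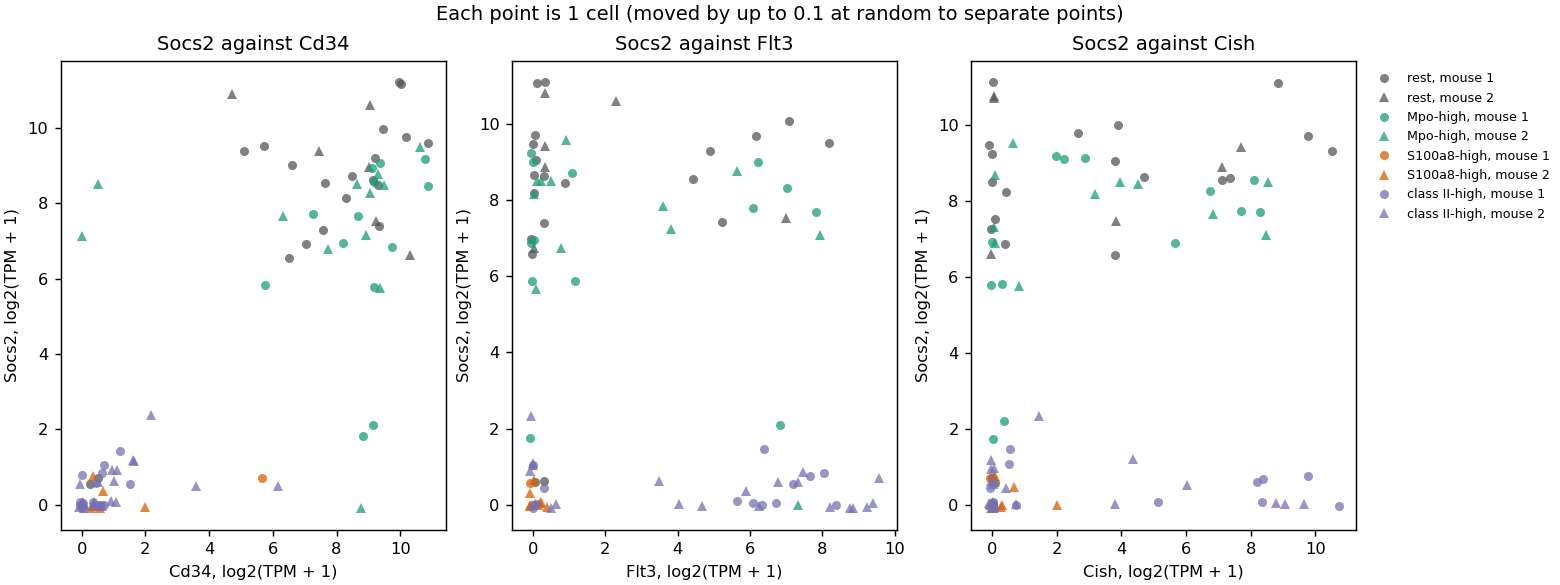
Socs2 on the vertical axes against Cd34, Flt3 and Cish on the horizontal axes, all as log2(TPM + 1); each point is 1 of the 96 cells, coloured by state, with circles for mouse 1 and triangles for mouse 2. Socs2 and Cd34 are high in the same cells, while class II-high cells reach high Flt3 and high Cish with Socs2 near 0.

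Cish, the close relative of Socs2, differed from it in class II-high cells, where it was present. It was at ≥10 TPM in 9 of 20 and 3 of 6 rest cells, in 5 of 13 and 5 of 12 Mpo-high cells, and in 6 of 14 and 6 of 20 class II-high cells. In class II-high cells its mean was 260 TPM in mouse 1 (median 0.58, highest 1792) and 96.5 TPM in mouse 2 (median 0, highest 800), against 156 and 58.3 TPM in rest cells. The difference between class II-high and rest cells was 0.59 in mouse 1 and -0.87 in mouse 2, so it had no common direction. In the 10 S100a8-high cells of mouse 2 the highest value was 3.19 TPM, a difference of -2.76.

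The cells that carried both genes depended on the state. Among class II-low and S100a8-low cells, all 14 Cish cells of mouse 1 and all 8 of mouse 2 also had Socs2 at ≥10 TPM, where 29 of 33 and 17 of 18 of all such cells had Socs2. Among class II-high cells 0 of 6 Cish cells in each mouse had Socs2. In the 12 Cish cells of the class II-high state, Cish was between 12.74 and 1792 TPM, and the highest Socs2 value was 1.16 TPM. Of these 12 cells 7 had Flt3 at ≥10 TPM, where 23 of all 34 class II-high cells did, and 1 had Cd34.

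Pim2 and Pim1 encode kinases of 1 family but were distributed differently. Pim2 was at ≥10 TPM in 13 of 20 rest cells of mouse 1 (median 83, highest 2509 TPM) and in 3 of 6 of mouse 2 (median 40.1, highest 667 TPM). In Mpo-high cells the medians were 0.57 and 0.27 TPM, with 5 of 13 and 2 of 12 cells at ≥10 TPM. In class II-high cells 0 of 14 and 1 of 20 cells reached 10 TPM. Pim2 was lower in class II-high than in rest cells by -4.87 and -3.58, and lower in Mpo-high than in rest cells by -2.40 and -2.78; the latter was 10th from the lowest of the 11015 genes. The ranges of rest and Mpo-high cells nevertheless overlapped, since 5 and 2 rest cells listed Pim2 at 0. In the S100a8-high cells of mouse 2 the difference was -3.59. Of the 24 Pim2 cells, 23 also had Socs2 at ≥10 TPM. These were rest and Mpo-high cells, of which 24 of 26 and 22 of 25 had Socs2 in any case. The exception was a class II-high cell of mouse 2 at 64.12 TPM, which was also a Cish cell (458.07 TPM).

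Pim1 was never abundant. Its mean was 14.7 TPM in mouse 1 and 13.5 TPM in mouse 2, with highest values of 115 and 176 TPM, both in rest cells. It reached 10 TPM in 9 of 20 and 4 of 6 rest cells, 8 of 13 and 6 of 12 Mpo-high cells and 2 of 14 and 5 of 20 class II-high cells. Pim1 was lower in class II-high than in rest cells by -1.47 and -1.52, with overlapping ranges; without 1 cell the value in mouse 2 went to -0.70. In the S100a8-high cells of mouse 2 it was lower by -2.33 and no cell reached 10 TPM.

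Socs1 and Socs3 were nearly absent. Socs1 was at ≥1 TPM in 1 cell of mouse 1 (3.51 TPM) and 5 cells of mouse 2, of which 4 were between 1.63 and 9.59 TPM. The fifth was a class II-high cell with 556 TPM of Socs1, in which Cish was also high (567.73 TPM). Socs3 was at 68.52 and 10.68 TPM in 2 cells of mouse 1 and was listed at 0 in the other 46 and in all 48 cells of mouse 2. A count of 0 among 48 cells allows a share of up to 6.25% of cells (exact upper limit 7.40%).

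Spry2 had a different distribution from the STAT5-induced genes. It was at ≥10 TPM in 6 of 13 and 7 of 12 Mpo-high cells but in 2 of 20 and 1 of 6 rest cells, and in none of the 34 class II-high cells, where the highest value was 0.72 TPM. Its mean was 27.6 and 43.5 TPM in Mpo-high cells against 9.75 and 5.49 TPM in rest cells, a difference of 1.65 in mouse 1 and 2.61 in mouse 2. Leaving out any 1 cell kept it between 1.28 and 1.96 in mouse 1 and between 2.21 and 3.43 in mouse 2. In the S100a8-high cells of mouse 2 Spry2 was listed at 0 in 5 cells and was 44.61, 87.26, 90.59, 115.87 and 140.7 TPM in the other 5, a difference from rest of 2.27. The only S100a8-high cell of mouse 1 had 124.93 TPM. That cell also passed the Mpo threshold, with 34099 TPM of Mpo against 1251 TPM of S100a8. It is S100a8-high only because S100a8 was taken before Mpo. Spry2 and Socs2 could be found in the same cell: 14 of the 22 Spry2 cells also had Socs2, 11 of them Mpo-high, where 22 of all 25 cells had Socs2.

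Dusp6 was sparse, at ≥1 TPM in 5 cells of mouse 1 and 7 of mouse 2. Its highest mean was in the S100a8-high cells of mouse 2, 33.8 TPM, from 3 cells at 19.33, 112.34 and 205.37 TPM; the difference from rest, 1.17, went to 0.54 without 1 cell. None of those 3 cells had Spry2, and none of the 5 Spry2 cells of that state had Dusp6 at 10 TPM. Spred1 was at ≥10 TPM in 7 cells of mouse 1 and 6 of mouse 2, spread over rest, Mpo-high and class II-high cells and with 655 TPM in 1 class II-high cell of mouse 2. That cell also passed the Mpo threshold, with 6730 TPM of Mpo and 6732 TPM of H2-Aa. It carried most of the Spred1 mean over all cells. All 10 S100a8-high cells of mouse 2 listed Spred1 at 0, as did 37 of the 48 cells of that mouse.

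Etv6 was the most widely detected member, at ≥1 TPM in 40 cells of mouse 1 and 34 of mouse 2. In rest cells its median was 44.9 TPM in mouse 1 (0.10 to 333) and 24.04 TPM in mouse 2 (13.24 to 174). It was lower in class II-high than in rest cells by -1.44 and -2.60, with medians of 11.2 and 2.60 TPM, and the ranges overlapped. In mouse 1 this went to -0.32 after a linear fit on detected genes and to -0.92 with the state threshold at 300 TPM, so that Etv6 no longer passed 1 in both mice. In Mpo-high cells the 2 mice went opposite ways: the median was 82.4 TPM in mouse 1, a difference of 1.04, and 12.2 TPM in mouse 2, a difference of -1.53. The S100a8-high cells of mouse 2 had a median of 0.775 TPM, a difference of -2.96.

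**Figure D3:**
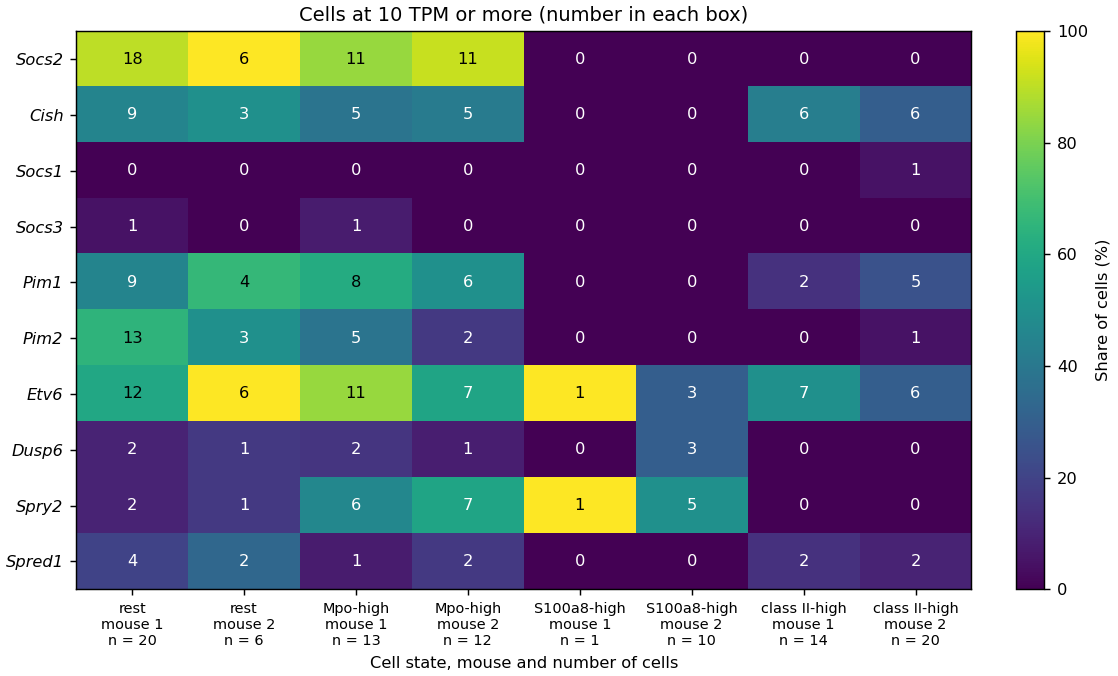
Share of cells at ≥10 TPM, as colour in percent, for the 10 members (rows) in each cell state of each mouse (columns); the number in each box counts cells. Socs2 fills the rest and Mpo-high columns and is at 0 in the S100a8-high and class II-high columns. Other members remain there, among them Etv6 in both states, Cish in class II-high and Spry2 in S100a8-high cells.

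Counted over the list, 9 of the 10 members passed the mean of 1 TPM that all genes tested had to pass, and Socs3 did not. Socs1 passed only through 1 class II-high cell at 556 TPM. Here and below, medians of the 10 members include Socs3, while those over the genes tested hold only genes that passed. Over the 9 that passed, the medians were -0.85 and -1.04 in class II-high, 0.22 and -0.44 in Mpo-high, and -2.33 in the S100a8-high cells of mouse 2. In class II-high cells 4 members, Socs2, Pim1, Pim2 and Etv6, were lower by 1 or more in both mice, where 19.3% of all genes were, and 0 were higher, where 4.11% were; the median of the 10 members was -0.62 and -0.97, against -0.43 and -0.53 over the genes tested. In Mpo-high cells Socs2 and Pim2 were lower (1.63% of all genes) and Spry2 was higher (7.57%), with a median over the 10 members of 0.09 and -0.39 against 0.22 and 0.11 over the genes tested. With the state threshold at 300 TPM none of these 3 genes passed 1 in both mice, and Spry2 did not pass with a pseudocount of 10, after a linear fit on detected genes, or with the threshold at 3000 TPM. In the S100a8-high cells of mouse 2, where only that mouse gives a difference, 6 members were lower (Socs2, Cish, Pim1, Pim2, Spred1 and Etv6; 36.1% of all genes) and Dusp6 and Spry2 were higher (10.3%), and the median was -2.05 against -0.40. Widely detected genes as a whole were also lower in class II-high cells: the median of 2051 such genes (1 TPM in 24 or more cells per mouse), as a difference, was -0.86 and -1.14. Relative to it only Socs2 and Pim2 remained lower by 1 or more in both mice, and after a linear fit on detected genes Socs2, Pim1 and Pim2 did. In the RPKM table, which holds 4 members mostly at a floor value, 0 passed 1 in both mice.

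**Figure D4:**
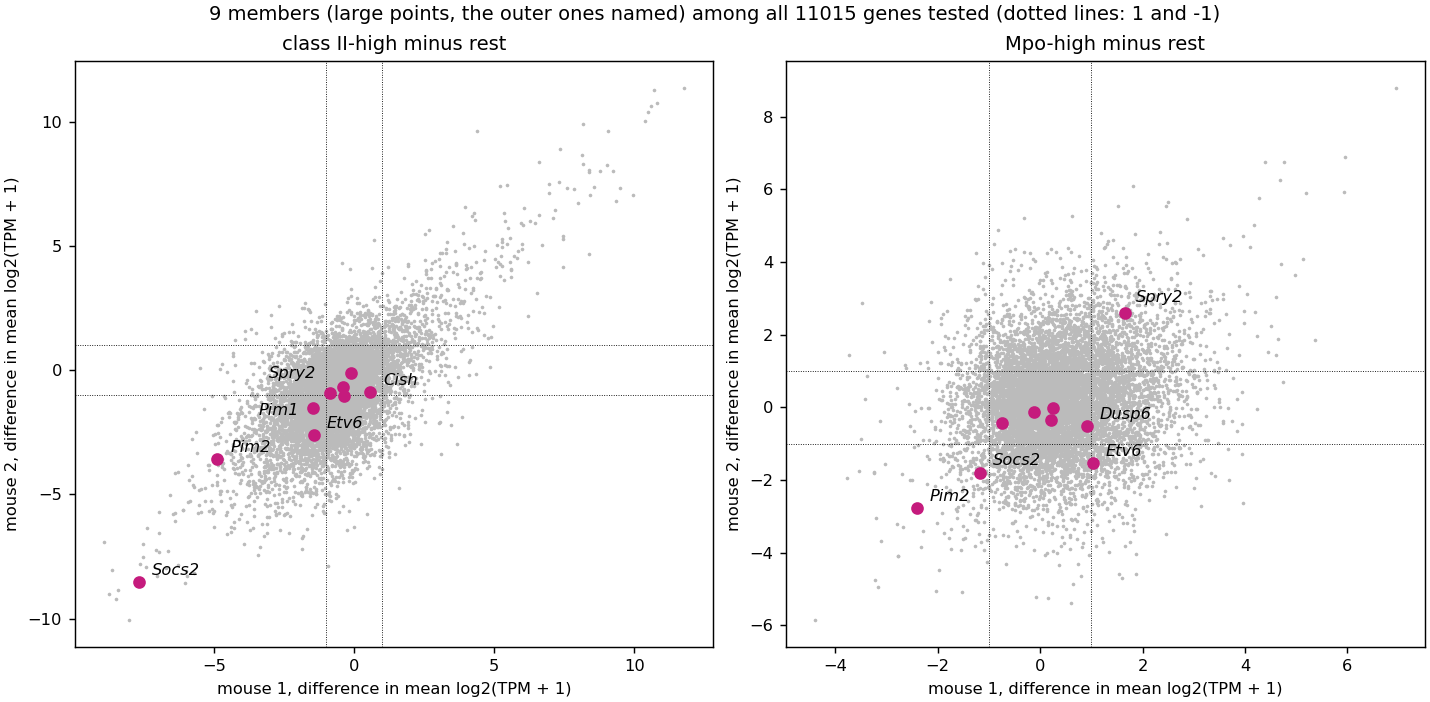
Difference in mean log2(TPM + 1) from rest cells in mouse 1 (horizontal axis) and mouse 2 (vertical axis) for 11015 genes (grey) and the 9 members among them (large points), for class II-high cells on the left and Mpo-high cells on the right; dotted lines mark 1 and -1. Socs2 lies at -7.67 and -8.53 on the left, and Pim2, Socs2 and Spry2 are the members beyond the lines in the same direction on the right.

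Flt3 itself was highest in cells that lacked Socs2. It was higher in class II-high cells, with means of 93.1 and 191 TPM against 29.4 and 22.4 TPM in rest cells, and these are the cells in which Socs2 and Pim2 were near 0. Of the 40 cells with Flt3 at ≥10 TPM, 15 had Socs2, and of the 56 others 31 did. Within class II-low cells, the 11 Flt3 cells of mouse 1 had a median Socs2 of 351 TPM against 297 in the 23 others, and the 6 Flt3 cells of mouse 2 had a median of 163 TPM against 76.5 in the 22 others. The means were 451 against 442 TPM in mouse 1 and, the other way, 183 against 315 TPM in mouse 2. On the log scale Socs2 (1.10 and 1.69) and Pim2 (1.97 and 1.61) were higher by 1 or more in both mice and 0 members were lower, where 9.98% of all genes were higher and 0.463% lower; the median of the 10 members was 0.66 and 1.33 against 0.23 and 0.39. Those Flt3 cells also had more detected genes, with medians of 4774 against 3810 and 4645 against 3845, and the S100a8-high cells, which lack both genes, were all on the Flt3-low side. Without the S100a8-high cells, a choice made after the data were seen, Socs2 differed by 0.81 and -2.13 and Pim2 by 1.81 and 0.96, and no member was higher by 1 in both mice. In mouse 1 that leaves out a single cell. The Pim2 difference in mouse 2 went to 0.33 without 1 cell, and after a linear fit on detected genes Socs2 differed by -0.47 and -0.93.

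Splitting class II-low cells by Cd34 gave larger values that rest on few cells. Socs2 was higher in Cd34 cells by 7.18 and 6.42, 2nd from the highest of all genes, and Cish, Pim2 and Etv6 were also higher by 1 or more in both mice; 16.4% of all genes were higher and 0.835% lower, and 0 members were lower. The median of the 10 members was 1.15 and 1.29 against 0.52 and 0.55 over the genes tested. Etv6 in mouse 1 ranged from -2.24 to 4.94 and Cish in mouse 2 went to 0.88 when 1 cell was left out. The Cd34-low side held only 2 cells in mouse 1, which are the Socs2-low rest cells described above, and 12 in mouse 2, of which 10 were S100a8-high. Without the S100a8-high cells each mouse had 2 Cd34-low cells, Socs2 differed by 7.41 and 0.06, and Pim2 alone remained higher in both (4.57 and 2.27).

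Mouse 2 had less Socs2, Cish, Pim2 and Etv6 than mouse 1 over all cells. The mean of Socs2 was 315 TPM in mouse 1 and 168 TPM in mouse 2, and the log differences were -2.19 for Socs2, -1.18 for Cish, -1.78 for Pim2 and -1.40 for Etv6, 4 members where 11.6% of all genes were lower by 1 and 1.59% higher. The median of the 10 members was -0.35 against -0.20 over the genes tested. Within states Socs2 was not lower in mouse 2: the difference was 0.96 in rest cells, 0.33 in Mpo-high cells and 0.11 in class II-high cells. Pim2 remained lower in rest (-1.03) and Mpo-high cells (-1.41), Etv6 was lower in Mpo-high (-2.03) and not in rest cells (0.53), and Cish was lower mainly in class II-high cells (-1.52, against -0.06 in rest). Pim2 is X-linked, and the part of sex in its difference was not tested. The 2 mice differed in the share of rest cells, 20 of 48 against 6 of 48, and of S100a8-high cells, 1 against 10.

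**Figure D5:**
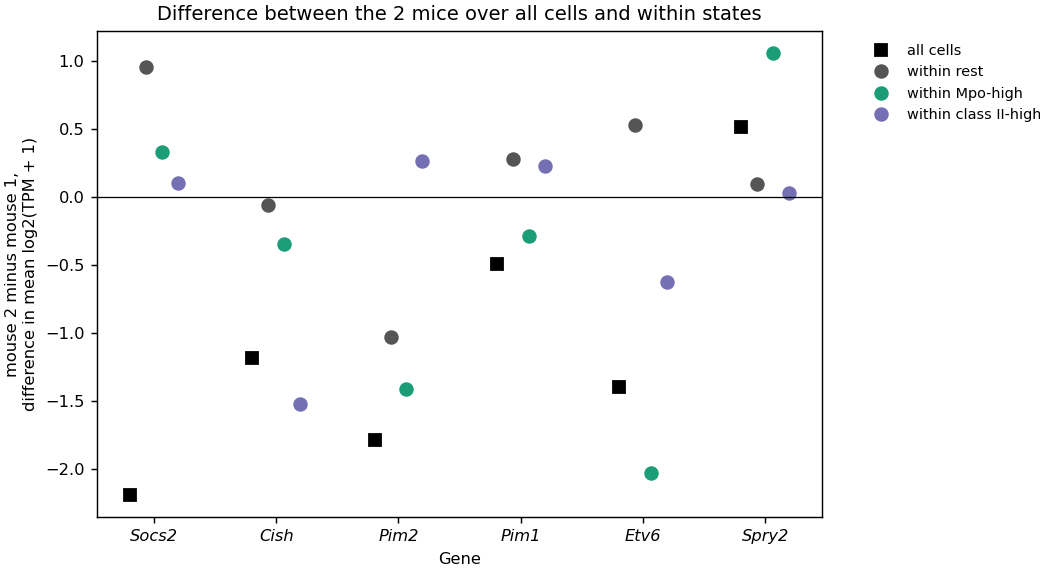
Mouse 2 minus mouse 1 in mean log2(TPM + 1) on the vertical axis for 6 members, over all cells (squares) and within rest, Mpo-high and class II-high cells (circles). The square for Socs2 is at -2.19 and its circles are between 0.11 and 0.96.

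The rest of the pathway gives the setting of these values. Of 14 other genes known to be induced by STAT5, 12 passed the mean of 1 TPM, and 4 were lower and 2 higher in class II-high cells of both mice, where 19.3% and 4.11% of all genes were. The furthest were the cyclin genes Ccnd2 (-4.33 and -3.92) and Ccnd1 (3.98 and 3.64), the growth regulator Myc (-3.07 and -3.82) and the cell cycle inhibitor Cdkn1a (-2.24 and -3.02). Myc was higher in Mpo-high than in rest cells (3.63 and 1.03), the opposite of Socs2 and Pim2. Among 9 JAK and STAT genes, Stat5a (-2.61 and -2.05) and Jak1 (-1.89 and -3.52) were lower in class II-high cells, and Jak2 (1.35 and 2.01) and Tyk2 (4.06 and 1.69) were higher. Of 13 receptor genes, Csf2rb, Csf3r, Csf1r and Il6ra, all cytokine receptor chains of myeloid cells, were higher in Mpo-high cells (7.57% of all genes were), Csf1r by 3.63 and 2.58. Csf3r was lower in class II-high cells (-1.21 and -1.14), and Flt3 (2.57 and 3.33) and Csf2ra (2.56 and 4.01) were higher.

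Of 16 further MAPK feedback and response genes in the table, 8 passed the mean of 1 TPM. In class II-high cells only the phosphatase gene Dusp1 was lower in both mice (-2.00 and -1.02), where 19.3% of all genes were. In Mpo-high cells none moved by 1 in both, where 7.57% of all genes were higher and 1.63% lower. Of 14 RAS-MAPK core genes, of which 13 passed, 2 were lower in class II-high cells (19.3% of all genes were), among them the RAS gene Nras (-2.35 and -1.52). Shc1 (1.38 and 2.39) and Map2k2 (1.66 and 1.26) were higher in Mpo-high cells, where 7.57% of all genes were. Of 15 other negative regulators, Rasa1, a RAS GTPase activator (-2.54 and -2.03), and the phosphatase gene Ptpn2 (-1.11 and -1.61) were lower in class II-high cells, again against 19.3% of all genes. In Mpo-high cells 0 of them moved by 1 in both mice.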

How the data were processed

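The authors deposited a table of TPM values, whose file name gives RSEM as the source, and a table of RPKM values under the name of AltAnalyze; TopHat2, Bowtie2 and the builds mm10 and mm9 are listed in the submitters' processing notes, and which served which table is not given in the sources used here. Each TPM column summed to 1000000. The RPKM table, deposited by the authors for 9310 gene identifiers, held 4 members, whose values were at the gene's lowest value in most cells (Socs2 was above it in 4 of 96); it was used only as an alternative. No cell was removed and no doublet caller was run. Differences are of mean log2(TPM + 1) within a mouse, in Python 3.11.15 with numpy 2.4.6, pandas 2.3.3 and scipy 1.17.1. The calculation was also run on shuffled values with changes planted only in genes of high mean. That setting does not check the calls of members with low means. Genes named beside the members were up to 4 per list and comparison with the largest smaller difference, and the 3 of most like pattern (at least 1 TPM in 12 cells of each mouse, for members in 24 cells). Members and lists were chosen with earlier results of these data known. Gene identifiers and marker lists were matched by symbol. The value of 1 gene of the pathway lists is not reported here.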

Additional observations from a re-analysis of the deposited data

Results flagged for a closer look

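Etv6 in Mpo-high against rest cells differed by 1.04 in mouse 1 and by -1.53 in mouse 2, past 1 in opposite directions. The difference between the mice was not tested, and the value in mouse 1 went to 0.80 without 1 cell.

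Spry2 in Cd34-detected against Cd34-low class II-low cells differed by 1.80 in mouse 1 and by -1.26 in mouse 2. This too was not tested. The Cd34-low side held 2 cells in mouse 1 and, in mouse 2, 12 cells, of which 10 were S100a8-high.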

How the results depend on the processing

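The 10 members were recomputed under other pseudocounts, filters, thresholds and cell sets. Of the recomputed values, 475 had a main value of at least 1 in size, whether or not the other mouse went the same way. They include the S100a8-high and between-mouse differences. Of these, 446 kept their sign or were 0, and 316 stayed past 1. In class II-high cells the count of lower members went from 4 to 2 with a pseudocount of 10 or centring on widely detected genes (Socs2 and Pim2 both times), and to 3 to 4 without 1 cell. In Mpo-high cells the 2 lower members became 1 among cells with 2000 to 5000 detected genes and 0 with the state threshold at 300 TPM, and were 1 to 2 without 1 cell; the 1 higher member became 0 with a pseudocount of 10, a linear fit on detected genes, or thresholds of 300 or 3000 TPM. For Flt3 the 2 higher members became 1 with a pseudocount of 10 or the linear fit (Pim2), with 2000 to 5000 detected genes (Cish, so both were lost) and in class II-low, S100a8-low and Mpo-low cells (Spry2, likewise), stayed 2 but were Pim1 and Pim2 when split at 100 TPM, and became 0 when centred, split at 1 TPM, over all cells or without S100a8-high cells (the last chosen after seeing the data), and 1 to 3 without 1 cell; over all cells 1 member, Socs2, was lower. For Cd34 the 4 higher members became 2 with a pseudocount of 10, the linear fit or 2000 to 5000 detected genes, and 1 when centred or without S100a8-high cells, and were 3 to 5 without 1 cell. The member median in S100a8-high cells went from -2.05 to -0.93 with a pseudocount of 10 and -0.71 when centred. That between mice went from -0.35 to 0.19 when centred, 0.070 within class II-high and 0.37 within rest cells. The cause was not tested.

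Signs turned as follows. In class II-high cells Spred1 in mouse 2 was 0.10 when centred and Etv6 in mouse 1 was 0.42 in the RPKM table, and in Mpo-high cells Socs2 in mouse 1 was 0.42 at a threshold of 300 TPM. For Flt3, Socs2 was -0.47 and -0.93 with the linear fit, -0.027 and -0.11 in the RPKM table, -1.19 and -1.78 over all cells, and in mouse 2 -0.23 split at 100 TPM, -1.82 in class II-low, S100a8-low and Mpo-low cells and -2.13 without S100a8-high cells; Etv6 in mouse 2 was -0.24 in the RPKM table and -1.58 in the former cells, and Spry2 in mouse 2 -0.91 over all cells. For Cd34 in mouse 2, Cish was -0.13 when centred and -3.91 without S100a8-high cells, Etv6 -0.094 when centred, -0.21 in the RPKM table and -1.21 without S100a8-high cells, Dusp6 0.58 without S100a8-high cells and Spry2 0.61 over all cells; in mouse 1 Spry2 was -0.97 split at 100 TPM. Between mice Socs2 was 0.11, 0.33 and 0.96 within class II-high, Mpo-high and rest cells and 0.039 in the RPKM table, Pim2 0.27 within class II-high and Etv6 0.53 within rest cells. Cd34 among class II-low, S100a8-low and Mpo-low cells was not run, since mouse 2 had no Cd34-low cell there, and 0 of the 4 members in the RPKM table passed 1 in both mice in the class II-high, Mpo-high, Flt3 and Cd34 comparisons. No paired analysis was possible because each cell has a number of its own; the state, Flt3 and Cd34 differences were taken within each mouse, and mouse 2 against mouse 1 has 1 animal a side. Depth is unknown in TPM, and shares of cells rest on 6 to 20 cells a state in most groups.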
